A study of Mus musculus with 6 samples.

Results

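The insulin-like growth factor (IGF) axis was examined through 10 genes among the 43043 listed for the mouse melanoma line D4M-3A. They are the ligands Igf1 and Igf2, the receptors Igf1r and Igf2r, and the binding protein genes Igfbp2 to Igfbp7. The genes, and the lists of other genes below, were chosen by name with earlier results of these data known. Their counts beside the shares over all genes are therefore a description. Igfbp7 is also among the genes that the study selected on these same samples, so its change is not independent evidence. Bulk RNA of 3 Ctrl and 3 Nfkbiz KO samples was compared, to ask which transcripts differ when IκBζ, an NF-κB co-regulator encoded by Nfkbiz, is lost. The cells carried a lentiviral CRISPR-Cas9 construct, which was empty in Ctrl and directed against Nfkbiz in Nfkbiz KO. Both populations were selected with puromycin and grown in medium with serum, and the samples are 3 independent experiments per group. Whether the Nfkbiz KO cells are 1 clone is not given in the sources used here, and a difference between the transduced populations other than the knockout cannot be told apart from it. In bulk RNA, fewer cells with a transcript and less of it per cell cannot be told apart either.

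IGF1 and IGF2 are secreted growth factors that signal through the tyrosine kinase IGF1R, which activates the PI3K-AKT and ERK pathways. IGF2R, also the cation-independent mannose 6-phosphate receptor, takes up and degrades IGF2 and carries lysosomal enzymes. Most IGF in body fluids is held by IGFBPs, which prolong its life and keep it from the receptor until proteases cleave them. IGFBP7 binds IGF only weakly and also has IGF-independent roles, including growth suppression in melanocytic cells.

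Of the 10 genes, 7 were detected and tested, 2 had 0 reads in all 6 samples, and Igfbp2 had 1 read in all. In Nfkbiz KO, Igf1 (3.34-fold), Igfbp4 (2.77-fold) and Igfbp7 (2.48-fold) were lower, Igfbp3 (1.24-fold) and Igf2r (1.27-fold) were higher, and Igf1r was lower by a small amount that was past the test only with all samples or without Ctrl replicate 3, among the fits that left 1 out. Igfbp6 did not pass the test. Thus 6 of the 7 tested genes passed edgeR's quasi-likelihood test at an adjusted p of at most 0.05 (Benjamini-Hochberg, over all genes tested), against 36.6% of the 14419 genes tested. The adjusted p and a fold change above 2 were reached by 3, all lower, against 5.92% of all genes in either direction and 3.36% that were lower. With a further difference of means above 4 TPM, the thresholds in the study's methods, only Igfbp7 remained, against 1.79% of all genes. TPM, transcripts per unit of library size after scaling by gene length, is the deposited level, and fold changes were estimated from read counts. The measures do not rest on the same reads. Ccn6, a gene of a list below, had 22 to 36 reads per Nfkbiz KO sample but 0 TPM. Folds from TPM and from read counts can therefore differ.

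The targeted gene Nfkbiz had 69.1, 75.2 and 63.4 TPM in Ctrl and 34.8, 34.7 and 35.1 TPM in Nfkbiz KO, with edited and unedited transcripts counted alike. The study checked the knockout at the protein level, by immunoblot of IκBζ. Between 32219900 and 44927203 reads per sample were counted on genes. Spread among the Ctrl samples was wider than among the Nfkbiz KO samples, the chi-square of their counts over its degrees of freedom being 25.8 to 65.9 for pairs of Ctrl samples and 3.41 to 5.89 for pairs of Nfkbiz KO samples. Defining melanocyte genes were absent or low: Sox10 and Tyr had 0 reads in all samples, Mitf had 60 to 115 reads, and the 8 lineage markers together reached at most 1.98 TPM in any sample, so that the labelled cell type is not shown by these markers. The 5 leukocyte markers summed to at most 0.0643 TPM and the 3 keratinocyte markers to at most 0.166 TPM. The 3 endothelial markers summed to 0.53 to 0.796 TPM in Ctrl and 1.31 to 1.83 TPM in Nfkbiz KO, through Cdh5, while Tie1 had 0 reads. The part of this difference in the results was not tested.

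**Figure D1:**
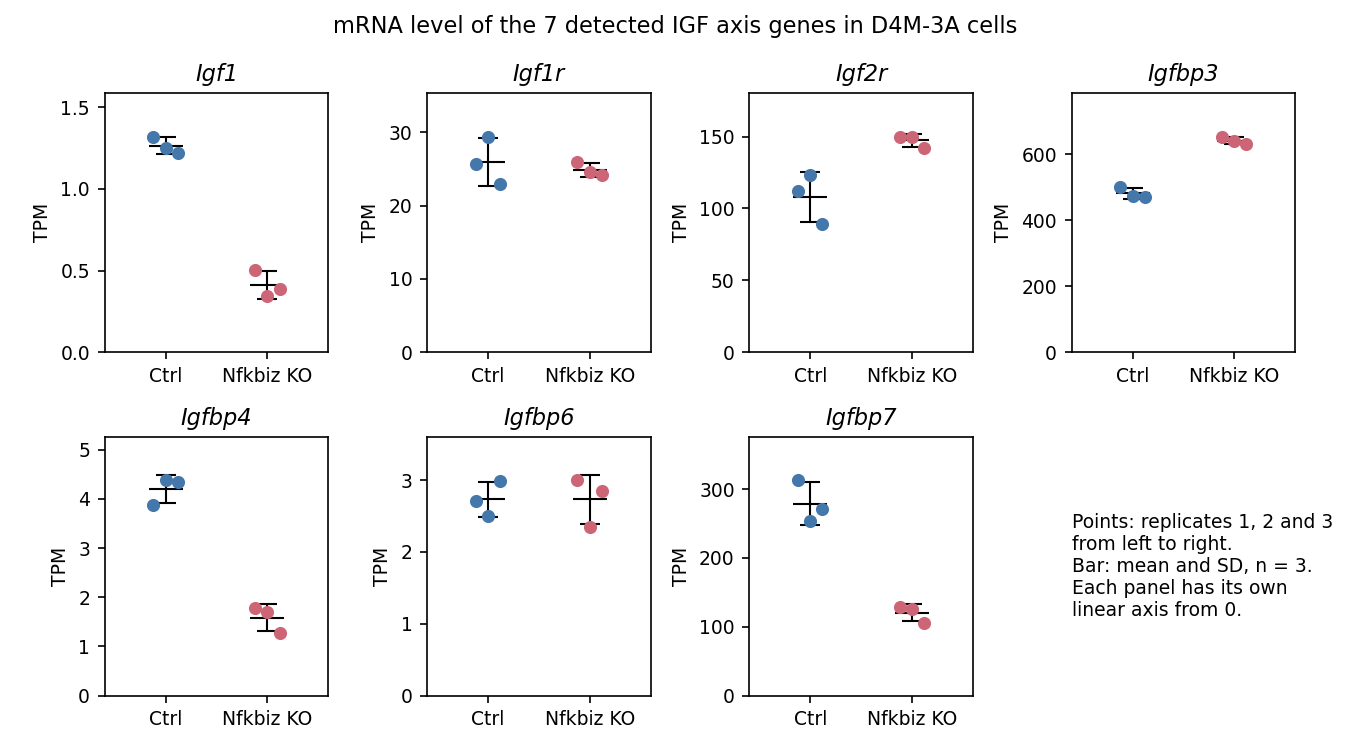
Level of the 7 detected IGF axis genes in TPM (y axis, linear from 0, one scale per gene) in Ctrl and Nfkbiz KO samples; points are the 3 replicates and bars the mean and SD. The groups lie apart for Igf1, Igf2r, Igfbp3, Igfbp4 and Igfbp7 and overlap for Igf1r and Igfbp6.

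The stretches just upstream of Igfbp7 and Igfbp4, the binding protein genes whose mRNA fell, are shown because they precede the start of transcription. They come from the RefSeq promoter table (GRCm38.p6) and were placed on GRCm39 by exact match. They end at the base before the annotated gene, and capitals mark TATAAA, the core of a TATA box, which helps to place the start of transcription. The Igfbp7 stretch lies on the minus strand at chr5:77555932-77556142 and the Igfbp4 stretch on the plus strand at chr11:98931820-98932063.
Igfbp7: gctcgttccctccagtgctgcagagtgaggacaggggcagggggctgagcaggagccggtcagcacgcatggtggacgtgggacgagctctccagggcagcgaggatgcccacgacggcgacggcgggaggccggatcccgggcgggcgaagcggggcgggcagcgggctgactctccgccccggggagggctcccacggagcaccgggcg
Igfbp4: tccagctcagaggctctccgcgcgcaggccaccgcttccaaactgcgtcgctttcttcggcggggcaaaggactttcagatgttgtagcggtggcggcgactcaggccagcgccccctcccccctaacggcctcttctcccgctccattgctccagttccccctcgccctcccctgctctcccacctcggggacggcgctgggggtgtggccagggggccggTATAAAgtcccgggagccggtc
Both were rich in G and C (74.9% and 68.4%), with 23 and 21 CpG dinucleotides. In the 250 bases before the RefSeq start, on both strands, neither gene held the NF-κB consensus, which 3.9% of all 32851 promoters in the table held, or the STAT motif TTCNNNGAA, which 7.02% held. TATAAA was in Igfbp4, 28 bases before the start, and in 12.4% of all promoters. It was also in Igfbp6, but 148 bases before the start and on the opposite strand. Among the members, 1 promoter held the NF-κB consensus, that of Igfbp5, which had 0 reads. A missing motif says only that these letters are not in this window. For Igf1, the window lay in an annotated exon and is not shown. The windows of Igf1r and Igfbp3, and 1 of those of Igf2, also lay wholly in annotated exons. In these windows a missing motif concerns exon sequence.

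Of the ligands, only Igf1 was expressed, and at a low level. Igf1 (chromosome 10 of GRCm39, 87693642 to 87772904, plus strand) had 1.32, 1.25 and 1.22 TPM in Ctrl replicates 1, 2 and 3 and 0.506, 0.345 and 0.384 TPM in Nfkbiz KO. Every Nfkbiz KO sample was below every Ctrl sample. Total gene reads were 144 to 167 per Ctrl sample and 40 to 50 per Nfkbiz KO sample. edgeR estimated a log2 change of -1.74 ± 0.19 (SE, adjusted p = 1.9e-05), which ranked 158 from the lowest among the 14419 genes tested. With each sample left out in turn it lay between -1.94 and -1.63. On log2(TPM + 1), a scale that understates changes of low genes, it was -0.68.

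Igf2 (chromosome 7, 142204503 to 142220694, minus strand), a growth factor of the embryo expressed from 1 parental allele, had 0 reads in all samples. At these depths, 0 reads allow up to 0.0668 to 0.0931 CPM (counts scaled to library size), by counting error alone. H19, the imprinted RNA gene 70545 bases away, had 0 to 5 reads. 

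The receptors were more abundant than the ligand and had smaller fold changes. Igf1r (chromosome 7, 67601518 to 67883416, plus strand), the kinase that transmits the IGF signal, had 25.6, 29.4 and 22.9 TPM in Ctrl and 25.9, 24.6 and 24.1 TPM in Nfkbiz KO, so that the TPM of the groups overlapped. From read counts, edgeR estimated a log2 change of -0.19 ± 0.062 (SE, adjusted p = 0.027). The 95% interval of the fold, Nfkbiz KO over Ctrl, was 0.797 to 0.96. This call was not stable. On log2(TPM + 1) the log2 fold change was -0.05 (adjusted p = 0.71 from limma). Without Ctrl replicate 1 or 2, or without Nfkbiz KO replicate 1, 2 or 3, it lay between -0.21 and -0.14 and the adjusted p between 0.066 and 0.12 (edgeR); without Ctrl replicate 3 it was -0.25.

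Igf2r (chromosome 17, 12901293 to 12988614, minus strand) had 112, 123 and 89 TPM in Ctrl and 150, 150 and 142 TPM in Nfkbiz KO. All 3 Nfkbiz KO values were above the highest Ctrl value, and Ctrl replicate 3 was the lowest. edgeR estimated a log2 change of 0.34 ± 0.077 (SE, adjusted p = 0.004), and 0.25 to 0.42 with 1 sample left out. The counting was not strand-specific, and Airn, an antisense RNA, overlaps Igf2r. Airn had 1682 to 2598 reads and a log2 fold change of 0.20 (edgeR adjusted p = 0.14), so reads of the pair cannot be told apart by strand. The Igf2r level was 4.15 ± 0.244 times that of Igf1r in Ctrl and 5.92 ± 0.155 times in Nfkbiz KO (SD, n = 3 each), from the ratios of TPM in each sample.

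Igfbp3 was the most abundant of the 10 genes in every sample. Igfbp3 (chromosome 11, 7156086 to 7164179, minus strand), the main IGF carrier in serum, had 500, 474 and 471 TPM in Ctrl and 654, 640 and 631 TPM in Nfkbiz KO. The groups were apart, and the spread within each was small against the gap between them. edgeR estimated a log2 change of 0.32 ± 0.058 (SE, adjusted p = 0.001), a fold of 1.24 with a 95% interval of 1.14 to 1.36. By mean TPM it stood at the 98.4th percentile of the genes tested. Igfbp1 lies 3539 bases from Igfbp3 on the opposite strand, with no coding gene between, and had 0 reads in all samples.

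Igfbp7 (chromosome 5, 77493130 to 77555931, minus strand) had 313, 253 and 271 TPM in Ctrl and 129, 126 and 106 TPM in Nfkbiz KO. Every Nfkbiz KO value was well below the lowest Ctrl value. edgeR estimated a log2 change of -1.31 ± 0.093 (SE, adjusted p = 3.5e-07), and -1.39 to -1.22 with 1 sample left out. Polr2b, a gene on the other strand that overlaps Igfbp7, had a log2 fold change of -0.08 (edgeR adjusted p = 0.27). Igfbp7 was above Igf2r in each Ctrl sample and below it in each Nfkbiz KO sample, with Igf2r at 0.391 ± 0.0856 times its level in Ctrl and 1.23 ± 0.0908 times in Nfkbiz KO (SD, n = 3 each).

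Igfbp4 (chromosome 11, 98932064 to 98945218, plus strand), whose protein mostly restrains IGF signaling until it is cleaved, had 3.87, 4.38 and 4.34 TPM in Ctrl and 1.79, 1.69 and 1.27 TPM in Nfkbiz KO. No Nfkbiz KO sample reached the lowest Ctrl value. edgeR estimated a log2 change of -1.47 ± 0.16 (SE, adjusted p = 1.9e-05). Its means differed by -2.61 TPM, less than the 4 TPM of the study's thresholds. Igfbp6 (chromosome 15, 102052697 to 102057953, plus strand), which prefers IGF2, had 2.71, 2.5 and 2.99 TPM in Ctrl and 3, 2.35 and 2.85 TPM in Nfkbiz KO. The groups overlapped, with 30 to 49 reads per sample. edgeR estimated a log2 change of -0.11 ± 0.26 (SE, adjusted p = 0.78), and the 95% interval of the fold, 0.624 to 1.38, leaves room for changes of the size seen in Igfbp3. In Ctrl, Igfbp4 was above Igfbp6, and in Nfkbiz KO below it, in all 3 samples of each group.

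Igfbp2 and Igfbp5 are neighbors on chromosome 1, 5456 bases apart on opposite strands (72863606 to 72891634, plus strand, and 72897091 to 72914043, minus strand). Neither was expressed at a measurable level, with 1 read on Igfbp2, in Ctrl replicate 2, and 0 reads on Igfbp5. IGFBP2 and IGFBP5 are secreted binding proteins that are common in other tissues. No fold change is given for either gene.

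**Figure D2:**
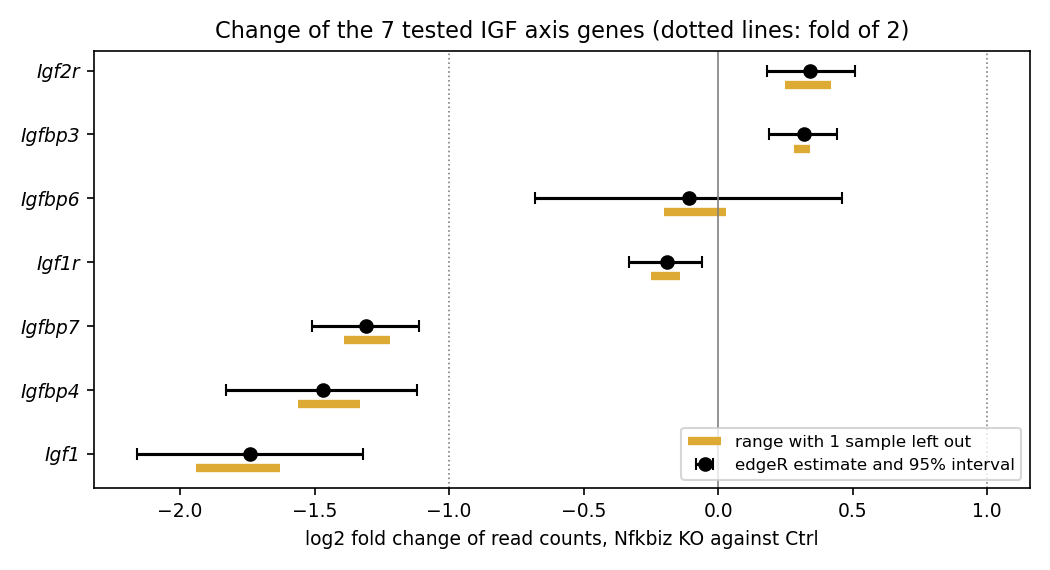
Log2 fold change of read counts in Nfkbiz KO against Ctrl (x axis) of the 7 tested genes, with the edgeR estimate and its 95% interval (black) and the range of estimates with 1 sample left out (yellow). Igf1, Igfbp4 and Igfbp7 lie wholly below a log2 fold change of -1, and the interval of Igfbp6 spans 0.

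On the log2 CPM scale, the groups lay apart for 6 of the 7 tested genes, against 48.4% of all genes tested, the exception being Igfbp6. A two-sided exact permutation test gave p = 0.1 for each of the 6. Groups that lie apart always give this value, the smallest that 3 samples against 3 allow, so it adds no evidence. By level in Ctrl, the detected genes ranked Igfbp3, Igfbp7, Igf2r, Igf1r, Igfbp4, Igfbp6 and Igf1, and no 2 neighbors in this order overlapped. In Nfkbiz KO the order was Igfbp3, Igf2r, Igfbp7, Igf1r, Igfbp6, Igfbp4 and Igf1, again without overlap of neighbors. At least 97% of the reads on each of the 7 genes mapped uniquely.

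The groups overlapped in the summed TPM of the binding protein genes but not in the shares of Igfbp3 and Igfbp7. The overlap of the sums holds for TPM only. In CPM, mean Igfbp3 went from 448 in Ctrl to 565 in Nfkbiz KO and mean Igfbp7 from 104 to 42.7, a rise larger than the fall. The summed TPM of the 6 genes was 820, 733 and 750 in Ctrl and 787, 770 and 742 in Nfkbiz KO, and the ranges of the groups overlapped. Igfbp7 made up 38.2%, 34.4% and 36.2% of it in Ctrl and 16.3%, 16.3% and 14.3% in Nfkbiz KO. Igfbp3 made up 62.8% ± 1.8 and 83.8% ± 1.18 (SD, n = 3 each). The TPM of Igfbp3 was 1.74 ± 0.139 times that of Igfbp7 in Ctrl and 5.37 ± 0.498 times in Nfkbiz KO. Igfbp4 and Igfbp6 each held less than 1% in every sample. Shares are relative, so that a fall of 1 gene raises the others, and they were not tested.

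**Figure D3:**
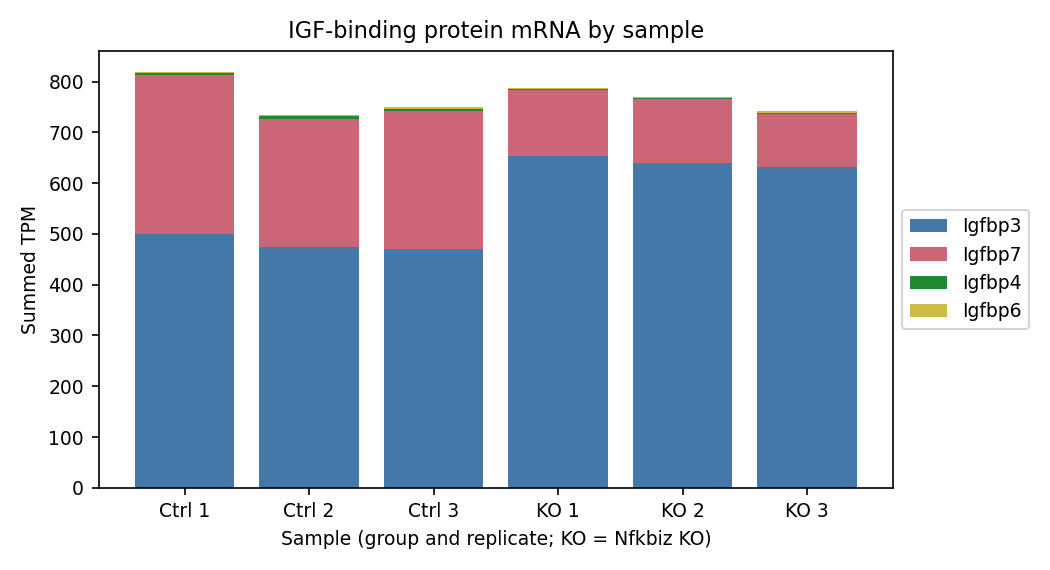
Summed TPM (y axis) of the IGF-binding protein genes in each sample (x axis, group and replicate), with bar segments for Igfbp3, Igfbp7, Igfbp4 and Igfbp6; Igfbp2 and Igfbp5 are at or near 0. The totals lie between 733 and 820 TPM in both groups, and the Igfbp7 segment is smaller in the 3 Nfkbiz KO samples.

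mRNAs of proteins that act on IGFBPs were also measured. Of 9 genes listed for partners and processing of IGFBPs, 7 were tested, and 4 were lower, 0 higher and 3 did not pass the test, against 18.4% lower and 18.2% higher of all genes tested (median log2 fold change of the 7, -0.83, against -0.02 for all genes tested). Adam12, a membrane metalloproteinase that cleaves IGFBP3 and IGFBP5, had 2.74, 2.93 and 2.22 TPM in Ctrl and 0.537, 0.502 and 0.494 TPM in Nfkbiz KO, with a log2 change of -2.44 ± 0.14 (SE, edgeR adjusted p = 4.9e-08). Pappa, whose product cleaves IGFBP4, had 41 to 55 reads per sample in Ctrl and 12 to 21 in Nfkbiz KO, with a log2 change of -1.49 ± 0.32 (SE, edgeR adjusted p = 0.0029). Its level was low, with means of 0.312 ± 0.0275 TPM (SD, n = 3) for Ctrl and 0.0977 ± 0.0103 TPM (SD, n = 3) for Nfkbiz KO. Stc1, the gene of stanniocalcin-1, an inhibitor of the Pappa product, fell from 8.36 ± 0.543 to 4.09 ± 0.632 TPM and was the 1 gene of this list past the study's thresholds. Htra1, a secreted serine protease with an IGFBP-type domain, went down from 323 ± 6 TPM to 195 ± 10.1 TPM, with a log2 change of -0.83 ± 0.055 (SE). Stc2, Ctsd and Pappa2 did not pass the test, with log2 fold changes of -0.15, 0.15 and 0.60. Ctsd was close to the threshold, with an edgeR adjusted p of 0.052, and 68.4% of its reads were unique. It had 661, 664 and 665 TPM in Ctrl and 787, 794 and 784 TPM in Nfkbiz KO, so that the groups lay apart. With limma on log2(TPM + 1), or in edgeR without Ctrl replicate 3, 5 genes of this list passed. Igfbp1 had 0 reads, and Igfals, which forms the large serum complex with IGFBP3, had 0 to 10 reads and was not tested.

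Of 10 receptor and adaptor genes, 8 were tested, and 3 were higher and 1 lower, against 36.6% of all genes tested that passed in either direction (median log2 fold change 0.03). None of the 4 was beyond 1.5-fold, as 1670 of the 14419 genes were. Insr, the insulin receptor gene, had a log2 fold change of 0.22 (edgeR adjusted p = 0.045), and Irs2, an adaptor of both receptors, 0.39 (edgeR adjusted p = 0.0029), whereas Irs1, with 71.1% of its reads unique, had -0.03 (edgeR adjusted p = 0.83). Insr lost its call without Ctrl replicate 1 or 3, or any 1 Nfkbiz KO sample, with an adjusted p of up to 0.12 (edgeR). Of 17 genes for PI3K, AKT and FOXO, all were tested, and 3 were higher and 1 lower, 4 of 17 against the same 36.6% (median 0.02), again none beyond 1.5-fold. Akt1 and Akt2, genes of the kinase downstream of PI3K, had log2 fold changes of 0.02 and -0.14 and did not pass the test. Foxo3, the gene of a factor that AKT keeps out of the nucleus, was the lower gene, at -0.31 (edgeR adjusted p = 0.0011). Among the 3 higher genes, Rictor had 0.33 and Rptor 0.22 (edgeR adjusted p = 0.0049 and 0.022). Foxo3, Rictor and Rptor lost their calls on log2(TPM + 1), with an adjusted p of 0.064, 0.054 and 0.053 from limma. Rptor also lost its call without any 1 Nfkbiz KO sample, with an adjusted p of 0.064 to 0.084 (edgeR). Foxo3 and Rictor kept theirs with each sample left out. Insr, Irs1, Irs2, Akt1, Akt2, Foxo3, Rictor and Rptor were named after their values were seen. On log2(TPM + 1) with limma, only 1 gene of each of these 2 lists passed, Irs2 in the list of receptors and adaptors.

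The IGF2BP proteins bind the Igf2 transcript among many others. Of 4 genes for IGF2 mRNA binding and imprinting, 3 were tested, and all passed, 2 lower and 1 higher, where 36.6% of all genes tested passed. Igf2bp1 had 58 to 68 reads in Ctrl and 18 to 29 in Nfkbiz KO, with a log2 change of -1.37 ± 0.28 (SE, edgeR adjusted p = 0.0024). Igf2bp2, the most abundant at 63.5 ± 2.57 and 59 ± 1.12 TPM, had -0.24, and Igf2bp3 had 0.45. These 2 genes were named to complete the family, and Igf2bp2 lost its call on log2(TPM + 1) (adjusted p = 0.096 from limma).

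Of 11 other genes of proteins with an IGFBP-type domain, 9 were tested, with 2 higher and 3 lower, against 18.2% and 18.4% of all genes tested (median -0.41). Esm1, the gene of endocan, a secreted proteoglycan, had 71, 80.9 and 82.5 TPM in Ctrl and 189, 194 and 197 TPM in Nfkbiz KO, with a log2 change of 1.21 ± 0.07 (SE, edgeR adjusted p = 6.8e-08); the study selected it, too, on these samples. Ccn1, a matricellular protein gene, went down from 438 ± 26.8 TPM to 313 ± 16.5 TPM, with a log2 change of -0.59. Over the 51 genes of all 5 lists, 44 were tested and 20 passed, 9 higher and 11 lower, against 36.6% of all genes tested.

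**Figure D4:**
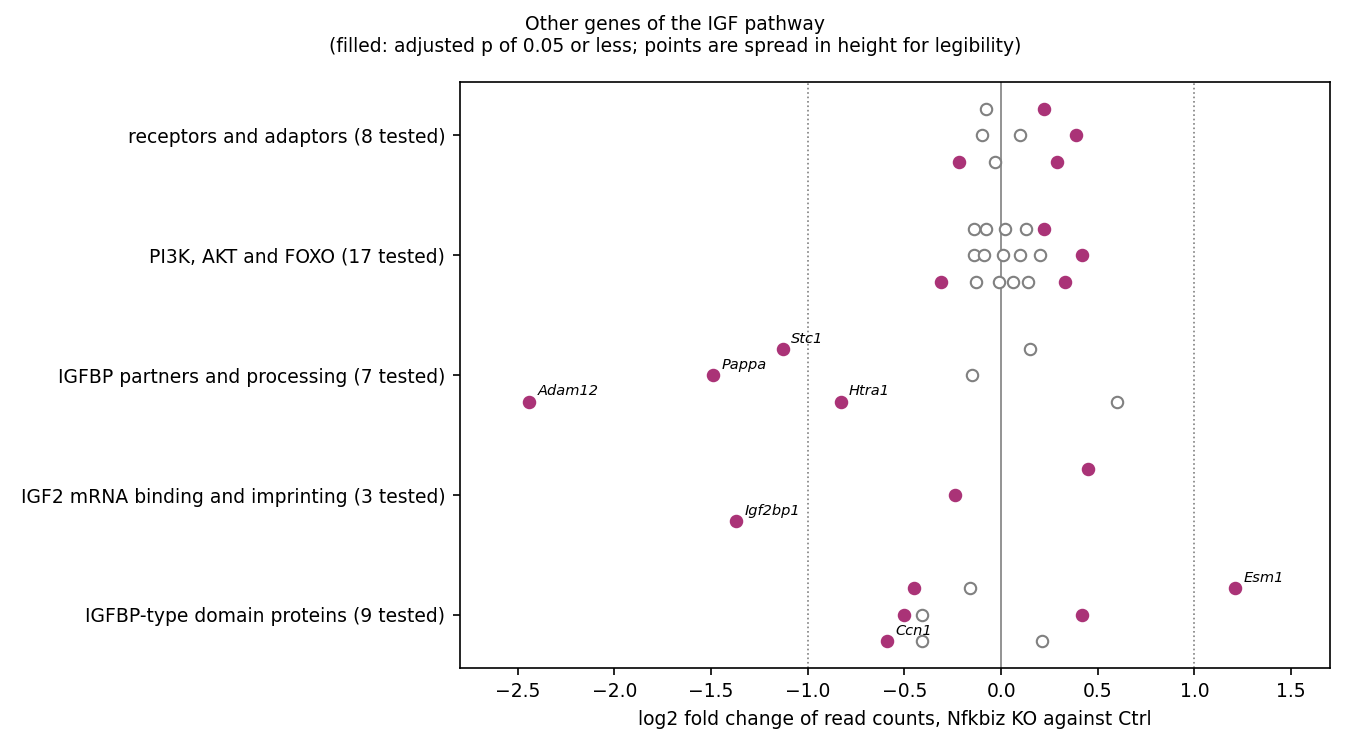
Log2 fold change of read counts in Nfkbiz KO against Ctrl (x axis) for the 44 tested genes of 5 lists (rows); filled points have an adjusted p of 0.05 or less, and named points also a fold change above 1.5. The 4 named genes for IGFBP partners and processing all lie below 0 and no gene of the receptor or PI3K lists is named.

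The genes closest to the 3 members that fell were sought among all genes tested, by the root mean square difference of log2 CPM centred on each gene's mean over the 6 samples. Since the members fell strongly, this mostly finds genes with a fall of the same size. Closest to Igfbp7 were Ddit4, an inhibitor of mTORC1, Ch25h, a cholesterol hydroxylase, and Cotl1, an actin-binding protein gene, at 0.0692, 0.0698 and 0.0795, with log2 fold changes of -1.32, -1.31 and -1.38. Closest to Igfbp4 were P2ry6, a nucleotide receptor gene, Cd1d1 and Adm, the adrenomedullin gene, at 0.0593, 0.0924 and 0.106, and closest to Igf1 were Fignl2, Gm37752 and Dennd3, at 0.0437, 0.0902 and 0.114. Gm37752 was tested on read counts but is listed at a mean of 0 TPM in both groups.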

How the data were processed

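RNA of 3 Ctrl and 3 Nfkbiz KO samples of D4M-3A cells was sequenced as paired-end reads. Per the study's methods, CLC Genomics Workbench v24.0 aligned them to GRCm39 by default settings, without regard to strand, whereas the labels list GRCm38. The deposited tables give, per gene, raw counts of total and of uniquely mapped reads. The authors also give TPM and RPKM, written with a decimal comma, which was converted.

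Total gene reads were tested with edgeR 4.0.16 in R 4.3.3: TMM normalization, filterByExpr defaults (14419 genes left), quasi-likelihood test, and Benjamini-Hochberg adjustment over all genes tested. Genes passed at an adjusted p of 0.05 or less. The standard error is the log2 fold change divided by the square root of F. Other settings tried were unique reads, no filter, RLE factors, a likelihood-ratio test in edgeR, DESeq2 1.42.0, limma 3.58.1 on log2(TPM + 1) and log2(TPM + 0.1), a replicate block, and each sample left out. The procedure was tested on simulated data. Within a group, no 2 samples were duplicates.

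The samples were treated as unpaired. The members and lists were chosen with earlier results of these data known. Named genes were all members, the genes of each list that passed and had a fold change above 1.5 (at most 5), and the 3 genes closest in pattern to each member past these thresholds. Coordinates are from GENCODE vM39 on GRCm39, matched by symbol (86.2% of names). All 10 members matched the RefSeq promoter table. The values of 1 gene of the PI3K list are not reported here.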

Additional observations from a re-analysis of the deposited data

How the results depend on the processing

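With another test, normalization, filter, scale or choice of reads, 5 or 6 members passed the test and 14 to 22 genes of the lists did; with 1 sample left out these were 5 or 6 members and 17 to 23 genes. Of the 10 members, 1 passed the study's thresholds in each of these fits. Igf1, Igfbp3, Igfbp4, Igfbp7 and Igf2r kept their direction and an adjusted p of 0.05 or less under all 14 alternatives, whereas Igf1r did not in 7 of them. On log2(TPM + 1), the log2 fold changes of the low genes Igf1, Pappa, Adam12 and Igf2bp1 shrank, to -0.68, -0.26, -1.26 and -0.32, since the pseudocount compresses low values. The fall in the Igfbp7 share of binding protein TPM was -20.6 percentage points, and -21.5 to -19.6 with 1 sample left out. The count over all genes was 5274, and 3798 to 5533 with 1 sample left out. No pairing by replicate number was seen. The deviations from the group means of Ctrl and Nfkbiz KO samples that share a number correlated across genes at 0.037, -0.023 and 0.026 (genes are not independent). Counting noise also brings such a correlation near 0, so that pairing is not excluded. With the replicate number as a block, 6 members, 20 genes of the lists and 5087 of all genes passed. Depth limits Igfbp6, with 30 to 49 reads per sample. Igf2, Igfbp2 and Igfbp5 had at most 1 read in any sample at these depths.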
